A study of Mus musculus with 12 samples.

Results

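The genes of oxidative phosphorylation were followed in the proximal colon of mice with and without the long non-coding RNA EPR. Genes were taken by symbol from the deposited count table: names beginning with Ndufa, Ndufb, Ndufc, Ndufs or Ndufv (complex I), Sdha to Sdhd (complex II), Uqcr (complex III), Cox4 to Cox8 (complex IV) or Atp5 (complex V), together with the mt- protein genes of the mitochondrial genome. The rule found 119 of the 55376 genes in the table. Of these, 106 are nuclear and 13 are mitochondrially encoded (mtDNA-encoded).

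RNA-Seq was performed on mice aged 12 weeks, 6 per genotype (EPR fl/fl or EPR cKO), with 1 library per animal. EPR fl/fl mice carry loxP sites around the promoter and exon 1 of EPR and have no Cre; their labels give the genotype as wt. EPR cKO mice carry the same floxed allele and in addition the CDX2P-NLS Cre transgene, in which regulatory sequence of the human CDX2 gene drives Cre in epithelial cells of the colon, cecum and distal ileum. RNA came from the frozen proximal part of the colon as whole tissue, so that muscle, vessels, nerves and fat also contributed to each library. Cre activity in those other tissues was not examined here.

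Oxidative phosphorylation couples the transfer of electrons from NADH and succinate to oxygen with the synthesis of ATP. Complexes I, III and IV pump protons across the inner mitochondrial membrane, complex II feeds in electrons from succinate, and complex V, the ATP synthase, uses the proton gradient. Complexes I, III, IV and V combine subunits made from nuclear genes with a few subunits encoded in mitochondrial DNA, whereas complex II is wholly nuclear. The absorptive cells of the colon oxidise short-chain fatty acids made by the microbiota and are rich in mitochondria.

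Of the 119 genes, 99 reached a CPM value (read count scaled to the size of the library) of at least 1 in at least 4 of the 12 libraries and were tested, 88 nuclear and 11 mtDNA-encoded. The 88 were 80 subunit genes and 8 Ndufaf genes, which encode assembly factors of complex I. The 80 were taken by name. They include Cox7a2l, described below as an assembly factor, under complex IV. They also include Ndufb1-ps, annotated as a long non-coding RNA at a bidirectional promoter, under complex I. Another 18 had counts but did not reach the minimum: 12 annotated as processed pseudogenes, the tissue-restricted isoform genes Cox4i2, Cox6a2, Cox8b and Ndufa4l2, and mt-Nd4l and mt-Atp8. Cox7b2 and Cox8c had no count in any library. Ndufa4 and its paralogue Ndufa4l2, named as complex I genes, were placed with complex IV, where the Ndufa4 protein resides.

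EPR, listed under the symbol Smim31, was counted at 297 to 1474 reads in the EPR fl/fl libraries and at 0 to 10 in the EPR cKO libraries, so that the labels and the targeted RNA matched in all 12 (edgeR log2 fold change -8.09, SE 0.47, adjusted p 1.61e-06). Total counts lay between 13093904 and 30727736 in EPR fl/fl and between 18468123 and 33211041 in EPR cKO. All 12 epithelial markers were present in every group, with a summed level of 10070 to 14810 CPM in the EPR fl/fl libraries and 12090 to 18620 CPM in EPR cKO. Markers of smooth muscle summed to 2912 to 5096 CPM in the EPR fl/fl libraries and to 979 to 8778 CPM in EPR cKO, with both the highest value (replicate 1) and the lowest in EPR cKO. In such bulk samples fewer cells of a type and less RNA per cell cannot be told apart. EPR cKO 1 stood apart, with a tissue score (mean log2 CPM of the epithelial markers minus that of the smooth muscle markers) of 0.53, whereas EPR cKO 2 to 6 lay at 2.59 to 4.13 and EPR fl/fl at 1.62 to 2.31. Calls of the genes described that changed when it was left out are given below.

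Nuclear genes of oxidative phosphorylation had slightly higher fitted levels in EPR cKO, by similar amounts in all 5 complexes, and none of these differences passed the test. The log2 fold change (EPR cKO over EPR fl/fl) was above 0 for 86 of the 88 tested genes, under each scaling tried, with a median of 0.24 beside 0.017 over all 15952 tested genes. Of all 15952 tested genes 8431 were above 0, which is also the background for the signs counted below in this fit. Genes of a set were measured in the same 12 libraries, so that their signs are not independent. At an adjusted p under 0.05 (edgeR quasi-likelihood test, Benjamini-Hochberg over all tested genes) 0 of the 88 were called in either direction, and limma-voom also called 0. Of all tested genes 0.884% were called higher and 1.57% lower. The adjusted p of the 88 ranged from 0.0941 to 0.855. At an unadjusted p under 0.05, 38 of the 88 (43.2%) were higher, against 11.1% of all tested genes, and 1 was lower, against 7.12%. The first count varied with the scaling and with single libraries: with total counts and no TMM scaling it was 11 of 88, against 6.05% of all tested genes, and without EPR cKO 6 it was 13, against 7.28%. For 0 of the 88 did all 6 EPR cKO libraries lie above all 6 EPR fl/fl libraries (1% of all tested genes) or below them (1.47%). The DESeq2 Wald test called 3 of the 88 higher, Cox7a1, Cox5a and Cox6c, where it called 2.76% of all tested genes higher.

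**Figure D1:**
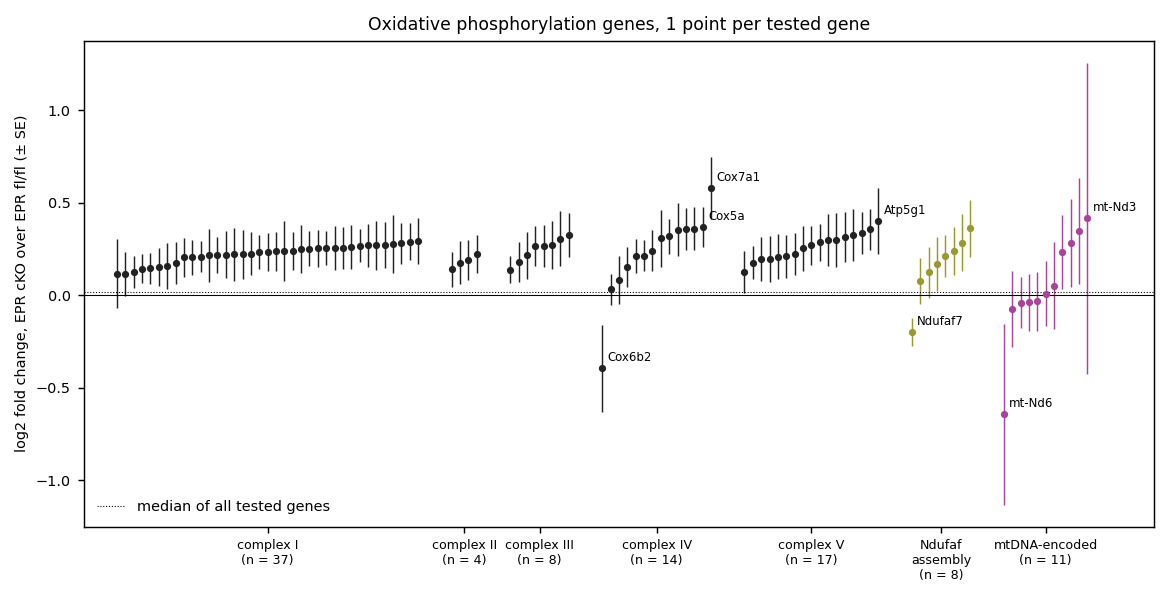
Log2 fold change, EPR cKO over EPR fl/fl, with its SE (vertical axis), for each of the 99 tested genes, grouped along the horizontal axis by complex for nuclear subunits, then assembly factors and mtDNA-encoded genes. The dotted line is the median of all tested genes (0.017); the nuclear subunits lie above it except Cox6b2 at -0.40, and the mtDNA-encoded genes lie on both sides.

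The library EPR cKO 1 decided how many nuclear genes passed. Without it, 19 of the 88 were called higher and 0 lower, while 7.52% of all tested genes were called higher and 14.4% lower. The 19 were 7 of 37 subunit genes of complex I, 0 of 4 of complex II, 3 of 8 of complex III, 6 of 14 of complex IV, 2 of 17 of complex V and 1 of 8 assembly factors. Among them were Cox7a1 (log2 fold change 0.60, SE 0.18, adjusted p 0.0298), Atp5g1 (0.50, SE 0.13, adjusted p 0.0197), Atp5d (0.34, SE 0.08, adjusted p 0.0114) and Ndufa1 (0.30, SE 0.08, adjusted p 0.0217), by edgeR on the other 11 libraries. Of the genes described further on, Ndufa6 (adjusted p 0.0241 without this library and 0.143 with it), Uqcrb (0.0443 and 0.174), Cox5a (0.0294 and 0.0987), Cox7c (0.0449 and 0.131) and Cox7a2 (0.0230 and 0.133) were also among the 19. The median over the 88 was 0.27 without this library and 0.24 with it.

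The libraries were also compared by the median deviation of the 80 subunit genes from their EPR fl/fl mean, on the log2 CPM scale. In EPR fl/fl the lowest was -0.33 (replicate 3), the median 0.03 and the highest 0.16. In EPR cKO the lowest was -0.06 (replicate 1), the median 0.29 and the highest 0.44. EPR cKO 3 to 6 lay above all EPR fl/fl libraries, whereas EPR cKO 1 and 2 lay within their range. The same median over the mtDNA-encoded genes ran from -0.42 to 0.34 in EPR fl/fl and from -0.30 to 0.49 in EPR cKO, and the groups overlapped over most of their range.

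**Figure D2:**
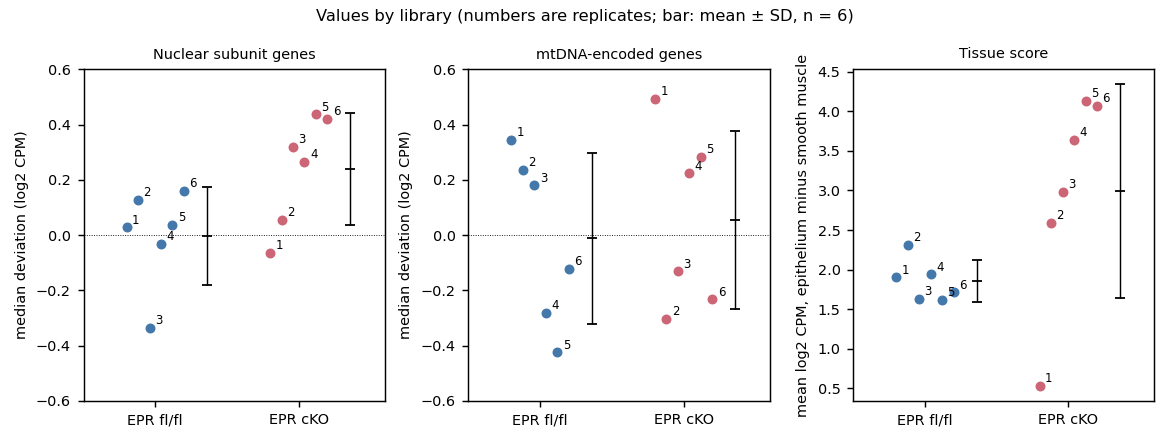
Each point is a library, numbered by replicate, with the mean and SD of 6 libraries beside it. The left and middle panels give the median deviation from the EPR fl/fl mean (log2 CPM) of the nuclear subunit genes and of the mtDNA-encoded genes, and the right panel the tissue score (log2 CPM). EPR cKO 1 has the lowest tissue score (0.53) and EPR fl/fl 3 the lowest nuclear median (-0.33).

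The tissue score and the nuclear genes moved together over the EPR cKO libraries. The score averaged 1.85 ± 0.26 over the EPR fl/fl libraries and 2.99 ± 1.35 over the EPR cKO libraries (SD, n = 6 each). All 12 epithelial markers had a log2 fold change above 0 (median 0.30; 0 called, 7 at an unadjusted p under 0.05), 9 of 10 smooth muscle markers had one below 0 (median -0.48; 0 called), and no gene of either list was at 0. Markers of absorptive colonocytes had a median of 0.40 (7 of 10 above 0, 0 called, 3 higher and 1 lower at an unadjusted p under 0.05). Of 9 goblet cell markers 5 were called lower, against 1.57% of all tested genes, with a median over the 9 of -0.79. At an unadjusted p under 0.05, 11.1% of all tested genes were higher and 7.12% lower. Adipocyte markers summed to 840 to 2410 CPM in the EPR fl/fl libraries and 265 to 1667 CPM in EPR cKO, with a median log2 fold change of -1.35 (0 of 10 called, 7 lower and 1 higher at an unadjusted p under 0.05) and the highest EPR cKO sum in EPR cKO 1. All 10 proliferation markers had a log2 fold change above 0 (median 0.35; 0 called, 2 higher at an unadjusted p under 0.05), with sums of 432 to 761 CPM in the EPR fl/fl libraries and 416 to 981 CPM in EPR cKO, the lowest in EPR cKO 1. The medians were -0.35 for endothelium (8 markers), -0.36 for macrophages (9) and -0.36 for enteric neurons and glia (10), with 0 called in each and no marker above 0. Of the endothelial markers 1 was lower at an unadjusted p under 0.05. The part of these cell types in the nuclear values was not tested beyond the tissue score. In a fit with the tissue score as a covariate, the median over the 88 nuclear genes was 0.062, 67 of the 88 were above 0, and 5 were higher at an unadjusted p under 0.05, against 7.5% of all tested genes. Since the score and the genotype changed together in EPR cKO 2 to 6, their parts cannot be told apart.

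Complex I, which takes electrons from NADH, was represented by 37 nuclear subunit genes, and all 37 had a log2 fold change above 0, between 0.12 and 0.29 with a median of 0.23. At an unadjusted p under 0.05, 18 of them were higher. Their summed level was 2540 ± 280 CPM in the EPR fl/fl group and 2961 ± 380 CPM in the EPR cKO group, a difference of 16.6%. Ndufa6, an accessory subunit of the matrix arm and the complex I subunit with the smallest p, lay at 73.8, 85.4 and 95.1 CPM (lowest, median and highest) in EPR fl/fl and at 85.2, 102 and 117 CPM in EPR cKO. The groups overlapped, with EPR cKO 1 the lowest of its group and 5 of 6 EPR cKO libraries above the EPR fl/fl median (log2 fold change 0.27, SE 0.09, edgeR adjusted p 0.143). Ndufb9, an accessory subunit of the membrane arm, had the highest level of the complex per length, 132 CPM per kb in EPR fl/fl. It lay at 68.4, 96.6 and 103 CPM in EPR fl/fl and at 95.4, 110 and 125 CPM in EPR cKO (log2 fold change 0.23, SE 0.10, adjusted p 0.246).

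The assembly factors did not all point the same way. Ndufaf4, which acts in building the matrix arm, lay at 16.4, 19.1 and 31.8 CPM in EPR fl/fl and at 23.0, 28.2 and 31.2 CPM in EPR cKO (log2 fold change 0.36, SE 0.15, adjusted p 0.240). Its highest EPR fl/fl value, in replicate 1, was above every EPR cKO value. Ndufaf7, another complex I assembly factor, was the only nuclear gene of the 88 that was lower at an unadjusted p under 0.05, with 15.7 to 18.9 CPM in EPR fl/fl, and 14.0 to 17.1 CPM in EPR cKO (log2 fold change -0.20, SE 0.08, adjusted p 0.200); it is named here after its value was seen.

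Complex II, succinate dehydrogenase, has no mtDNA-encoded subunit and also acts in the citric acid cycle. Its 4 genes had log2 fold changes between 0.14 and 0.22 and summed to 909 ± 83 CPM in the EPR fl/fl libraries and 1025 ± 139 CPM in EPR cKO. Sdha, the flavoprotein with the succinate site, lay at 335, 388 and 411 CPM in the EPR fl/fl libraries and at 330, 437 and 476 CPM in EPR cKO. EPR cKO 1 was below all EPR fl/fl libraries, and the other 5 lay between 389 and 476 CPM (log2 fold change 0.14, SE 0.09, adjusted p 0.439). Sdhb, the iron-sulphur subunit, lay at 143, 183 and 202 CPM and at 152, 203 and 242 CPM (0.18, SE 0.12, adjusted p 0.430). Sdhc, one of the membrane anchors, lay at 114, 148 and 170 CPM in the EPR fl/fl libraries and at 145, 165 and 195 CPM in EPR cKO (0.19, SE 0.11, adjusted p 0.367). Sdhd, the other anchor, lay at 164, 197 and 222 CPM in the EPR fl/fl libraries and at 187, 234 and 270 CPM in EPR cKO (0.22, SE 0.10, adjusted p 0.271). For all 4 the groups overlapped.

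Complex III passes electrons from ubiquinol to cytochrome c. All 8 nuclear genes had a log2 fold change above 0 (median 0.27, from 0.14 to 0.33), and 3 were higher at an unadjusted p under 0.05. Their sum was 1453 ± 167 CPM in the EPR fl/fl libraries and 1714 ± 235 CPM in EPR cKO. Uqcrb, which binds ubiquinone, lay at 103, 154 and 167 CPM in the EPR fl/fl libraries and at 150, 194 and 209 CPM in EPR cKO. The lowest value belonged to EPR fl/fl 3 and the overlap to EPR cKO 1 and 2 (log2 fold change 0.33, SE 0.12, adjusted p 0.174). Uqcrh, the hinge subunit that contacts cytochrome c1, was the most abundant per length (397 CPM per kb in EPR fl/fl) and had one of the smaller differences, with 196, 219 and 243 CPM in EPR fl/fl against 211, 241 and 260 CPM in EPR cKO (0.14, SE 0.07, adjusted p 0.330).

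Complex IV, cytochrome c oxidase, held the largest fold changes in both directions among the 88 genes. Its 14 tested nuclear genes had a median log2 fold change of 0.27, and 8 were higher at an unadjusted p under 0.05. With the untested forms they summed to 2526 ± 234 CPM in the EPR fl/fl libraries and 3014 ± 369 CPM in the EPR cKO libraries, a difference of 19.3%. Cox5a, which binds a thyroid hormone metabolite, lay at 167, 226 and 254 CPM in the EPR fl/fl libraries and at 246, 292 and 323 CPM in EPR cKO. All 6 EPR cKO libraries lay above the EPR fl/fl median, with EPR cKO 2 inside the EPR fl/fl range and EPR cKO 1 level with the highest EPR fl/fl library (0.37, SE 0.11, adjusted p 0.0987). Cox7c, one of the small subunits around the core, lay at 86.5, 131 and 143 CPM and at 143, 158 and 188 CPM, with only EPR cKO 1 below the highest EPR fl/fl library (0.36, SE 0.12, adjusted p 0.131). Cox4i1, the largest nuclear subunit of the enzyme, was the most abundant per length (663 CPM per kb in EPR fl/fl) and lay at 447, 511 and 552 CPM in the EPR fl/fl libraries and 524, 586 and 669 CPM in EPR cKO (0.21, SE 0.08, adjusted p 0.208).

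Several complex IV subunits exist as a widely expressed form and a form typical of heart and skeletal muscle, and these proximal colon libraries held mainly the former. Cox7a1 (chr7:30184144-30186078, plus strand, mm10), the muscle form of subunit VIIa, lay at 11.1, 19.1 and 23.7 CPM in EPR fl/fl and at 22.9, 27.7 and 34.7 CPM in EPR cKO. It had the largest log2 fold change of the 88 (0.58, SE 0.17, adjusted p 0.0941), all 6 EPR cKO libraries lay above the EPR fl/fl median, and only EPR cKO 2 lay below the highest EPR fl/fl library. Its widely expressed counterpart Cox7a2 lay at 123, 143 and 173 CPM and at 149, 193 and 224 CPM (0.36, SE 0.12, adjusted p 0.133). Per length, Cox7a1 made up 13.4% ± 1.9 of the pair over the EPR fl/fl libraries and 15.5% ± 2.1 over the EPR cKO libraries (SD, n = 6 each), with overlapping ranges (10.0% to 18.6% over the 12 libraries). The related Cox7a2l, an assembly factor of supercomplexes, had nearly the same level in both groups, 127 ± 10 and 130 ± 14 CPM (0.031, SE 0.08, adjusted p 0.855). Of 8 skeletal muscle markers 2 were tested; Acta1, skeletal muscle actin, was called higher (5.23 to 11.8 CPM on average, log2 fold change 1.18, SE 0.22, adjusted p 0.0127) and Ckm, muscle creatine kinase, was at 12.2 ± 2.7 and 9.38 ± 10.6 CPM. The skeletal muscle list summed to 15.5 to 24.7 CPM in EPR fl/fl, and 17.1 to 39.1 CPM in EPR cKO, none of the 8 was at 0 in all libraries, and their part in the Cox7a1 values was not tested.

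The other muscle or tissue-restricted forms were close to the detection limit of these libraries. Cox6a2 totalled 9 reads over the 12 libraries, beside 76741 for Cox6a1, the widely expressed form of subunit VIa. Cox8b took 0.549% ± 0.195 of the summed Cox8b and Cox8a level per length in the EPR fl/fl libraries and 0.220% ± 0.213 of it in EPR cKO. Cox8a lay at 246, 263 and 285 CPM in the EPR fl/fl libraries and 218, 299 and 361 CPM in EPR cKO (0.15, SE 0.11, adjusted p 0.459). Cox4i2, the hypoxia-linked form of subunit IV, took 0.0756% ± 0.0293 and 0.0437% ± 0.0351 of its pair with Cox4i1, and Ndufa4l2 took 0.349% ± 0.146 and 0.188% ± 0.123 of its pair with Ndufa4. Ndufa4 itself lay at 58.5 to 94.1 CPM and at 61.2 to 103 CPM (0.081, SE 0.13, adjusted p 0.751). Cox6b2, the testis form of subunit VIb, was the tested subunit gene with a log2 fold change below 0, at 0.803, 1.41 and 1.86 CPM in EPR fl/fl, and 0.850, 0.988 and 1.48 CPM in EPR cKO (-0.40, SE 0.24, adjusted p 0.387), against 218 ± 26 and 258 ± 40 CPM for Cox6b1, the common form (0.24, SE 0.11, adjusted p 0.278).

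The 17 nuclear genes of complex V summed to 4847 ± 580 CPM in the EPR fl/fl libraries and 5710 ± 841 CPM in EPR cKO, a difference of 17.8%. All had a log2 fold change above 0 (median 0.27), and 7 were higher at an unadjusted p under 0.05. Atp5b, the catalytic beta subunit, lay at 1089, 1351 and 1597 CPM in the EPR fl/fl libraries and at 1140, 1617 and 1821 CPM in EPR cKO (0.21, SE 0.12, adjusted p 0.384). Atp5l, the g subunit that takes part in dimers of the synthase, lay at 37.1, 48.8 and 59.6 CPM and at 51.9, 65.6 and 67.7 CPM, and only EPR cKO 2 lay below the highest EPR fl/fl library (0.36, SE 0.11, adjusted p 0.119). Atp5g1, 1 of 3 genes for the proton-carrying c subunit, lay at 102, 139 and 163 CPM and at 98.8, 189 and 218 CPM. EPR cKO 1 was the lowest of all 12 libraries, EPR cKO 2 lay within the EPR fl/fl range, and EPR cKO 3 to 6 lay above it (0.40, SE 0.18, adjusted p 0.258). The other c subunit genes had log2 fold changes of 0.20 (Atp5g2, SE 0.12, adjusted p 0.416) and 0.32 (Atp5g3, SE 0.14, adjusted p 0.240).

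**Figure D3:**
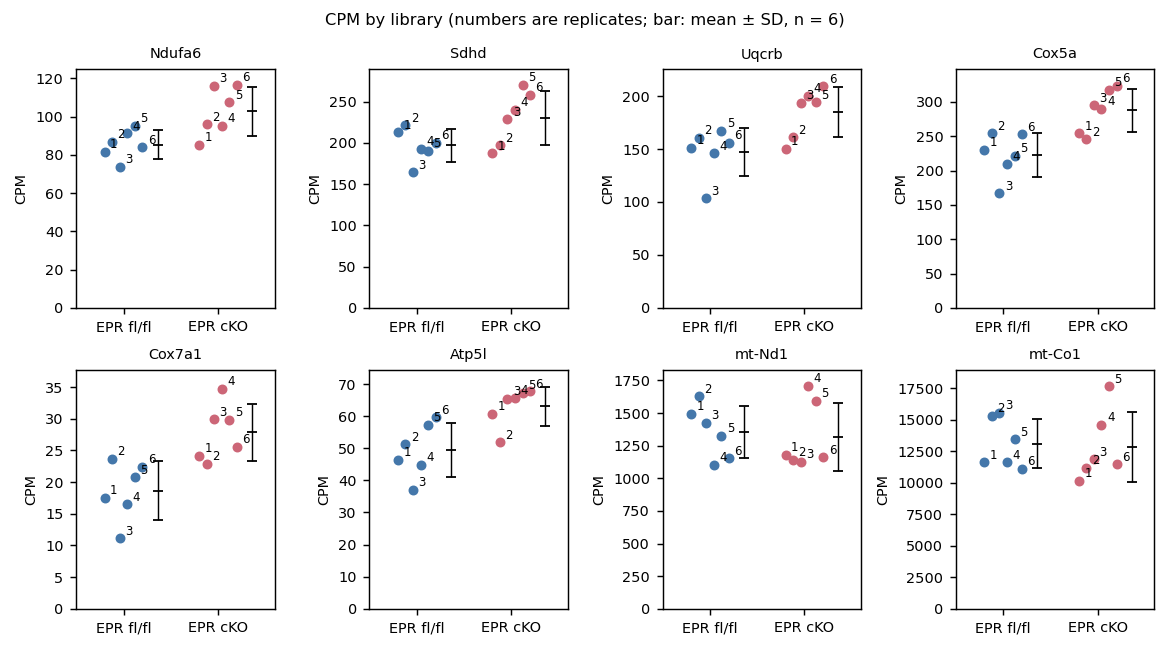
CPM (vertical axes, from 0) by library for the nuclear subunit with the smallest p in each complex (Ndufa6, Sdhd, Uqcrb, Cox7a1, Atp5l), for Cox5a and for mt-Nd1 and mt-Co1; numbers are replicates and bars give the mean and SD of 6 libraries. The nuclear genes overlap between groups mainly through EPR cKO 1 and 2, and mt-Nd1 and mt-Co1 overlap over most of their range.

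Some nuclear subunit genes have copies elsewhere in the genome, mostly processed pseudogenes. Of the 79 tested nuclear subunit genes found among the annotated transcripts, 13 shared over 10% of their 50-base stretches with another gene on the same strand, among them Uqcrb (25.4%), Cox7c (22.1%) and Atp5g1 (10.2%), and 5 shared over 10% with a gene on the opposite strand. The counts of these genes are less certain. Over the 47 genes that shared at most 1% the median log2 fold change was 0.25, close to that of all 80.

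Promoters of the nuclear subunit genes often hold binding motifs of factors that drive respiratory genes, and the windows of these genes were searched as a description only. The RefSeq windows (250 bases before to 50 after each start, GRCm38.p6) were found for 68 of the 80 tested subunit genes, 73 windows in all. The NRF1 core CGCATGCG was in 12.3% of the 73 windows and in 1.87% of all 32851 windows, on either strand. These 32851 windows were not limited to expressed genes, and the share over expressed genes alone was not counted. The ETS core CCGGAAG, bound by the GABP factor, was in 23.3% and 8.86%, the YY1 motif AAGATGGCG in 9.59% and 1.4%, and the ERR motif TCAAGGTCA in 2.74% and 0.423%. The upstream sequences of Atp5l (chr9:44920743-44920992) and Cox6a1 (chr5:115348959-115349208), both on the minus strand and written 5′ to 3′ along the gene, are shown since, among the subunit genes described above, these hold both the NRF1 core and the ETS core (read here as its complement); capitals mark these matches.
Atp5l: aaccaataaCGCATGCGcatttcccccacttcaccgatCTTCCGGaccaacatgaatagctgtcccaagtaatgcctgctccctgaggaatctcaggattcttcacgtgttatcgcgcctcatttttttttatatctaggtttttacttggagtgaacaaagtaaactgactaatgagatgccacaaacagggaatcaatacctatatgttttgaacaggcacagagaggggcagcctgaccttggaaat
Cox6a1: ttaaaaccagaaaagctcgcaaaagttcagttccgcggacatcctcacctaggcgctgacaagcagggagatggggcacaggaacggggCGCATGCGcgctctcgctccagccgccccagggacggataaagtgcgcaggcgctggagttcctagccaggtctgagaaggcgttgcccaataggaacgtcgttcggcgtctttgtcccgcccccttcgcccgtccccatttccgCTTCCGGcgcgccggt
In these data Atp5l had a log2 fold change of 0.36, and Cox6a1 lay at 232, 259 and 306 CPM in the EPR fl/fl libraries and 249, 307 and 333 CPM in EPR cKO (0.21, SE 0.09, adjusted p 0.247). A match describes the letters in the window and is not evidence of binding.

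The factors that bind such motifs, and the machinery of mtDNA expression, were examined as pathway lists. Of 11 tested regulators of mitochondrial biogenesis 0 were called (median log2 fold change 0.037). At an unadjusted p under 0.05, 2 were higher, against 11.1% of all tested genes. Ppargc1a, the coactivator PGC-1alpha, lay at 27.0, 36.1 and 54.1 CPM in EPR fl/fl and at 21.9, 31.8 and 45.1 CPM in EPR cKO (-0.26, SE 0.20, adjusted p 0.516). For its relative Ppargc1b the log2 value was 0.063 (SE 0.12, adjusted p 0.784). The motif-binding factors Nrf1 and Gabpa had log2 fold changes of 0.11 (SE 0.09, adjusted p 0.568) and 0.035 (SE 0.08, adjusted p 0.821). Esrra, which encodes the nuclear receptor ERRalpha, lay at 95.3, 104 and 125 CPM and at 97.6, 130 and 157 CPM (0.27, SE 0.11, adjusted p 0.200; without EPR cKO 1 it was 0.32 with an adjusted p of 0.0241).

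Of 29 tested genes for mtDNA transcription, replication and RNA stability 1 was called higher, against 0.884% of all tested genes. Of the 29, 28 had a log2 fold change above 0 (median 0.16). At an unadjusted p under 0.05, 6 were higher, against 11.1% of all tested genes. The gene that rose was Polg, the catalytic subunit of the mtDNA polymerase, at 42.6, 47.4 and 49.9 CPM in EPR fl/fl, and 51.0, 58.1 and 64.2 CPM in EPR cKO. All 6 EPR cKO libraries lay above all 6 EPR fl/fl libraries, as for 1% of all tested genes (0.29, SE 0.07, edgeR adjusted p 0.0356). The call was lost when any library other than EPR cKO 1 was left out, with adjusted p values up to 0.11, and with the tissue score as a covariate (0.24, adjusted p 0.121). Polrmt, the mitochondrial RNA polymerase, lay at 17.3, 18.3 and 19.4 CPM and at 19.5, 21.1 and 22.3 CPM, also without overlap (0.21, SE 0.06, adjusted p 0.104; 0.0269 without EPR cKO 1). Tfam, which packages mtDNA and starts its transcription, lay at 35.5, 37.6 and 43.8 CPM and at 30.9, 41.3 and 49.0 CPM (0.084, SE 0.10, adjusted p 0.671).

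The remaining lists had no called gene. Assembly factors outside the Ndufaf names had medians of 0.11 for complex I (10 tested), 0.052 for complex II (4), 0.12 for complex III (6), 0.19 for complex IV (22) and 0.13 for complex V (5). Of 17 mobile electron carrier and nucleotide carrier genes 7 were higher and 1 lower at an unadjusted p under 0.05 (median 0.18). Of all tested genes 11.1% were higher and 7.12% lower at that p. Cycs, cytochrome c, lay at 122, 172 and 210 CPM in the EPR fl/fl libraries and at 149, 203 and 257 CPM in EPR cKO (0.23, SE 0.15, adjusted p 0.419). All 16 genes of the citric acid cycle list had a log2 fold change above 0 (median 0.16). Of them 2 were at an unadjusted p under 0.05, against 11.1% of all tested genes.

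The fitted differences of the mtDNA-encoded genes lay on both sides of 0. Of the 11 tested, 0 were called in either direction, 0 were at an unadjusted p under 0.05, and 6 had a log2 fold change above 0. Their median was 0.0075, and it lay between -0.055 and 0.070 when single libraries were left out. With total counts and no TMM scaling it was -0.018. With the tissue score as a covariate it was 0.12, above the 0.062 of the nuclear genes in that fit. Single genes took both signs there. mt-Co1, mt-Nd1, mt-Cytb and mt-Nd6 were at -0.225, -0.167, -0.093 and -0.6. mt-Nd2, mt-Nd4 and mt-Nd5 were at 0.041, 0.14 and 0.46. mt-Co2, mt-Atp6, mt-Co3 and mt-Nd3, whose counts are less certain, were at 0.52, 0.65, 0.12 and 1.135. In the main fit the adjusted p ranged from 0.497 to 0.985 (edgeR). The 13 genes together took 1.43% to 2.09% of all counts in EPR fl/fl and 1.36% to 2.15% in EPR cKO. The nuclear subunit genes took 1.02% to 1.40% and 1.06% to 1.66%. The ratio of mtDNA-encoded to nuclear counts averaged 1.42 ± 0.33 over EPR fl/fl and 1.18 ± 0.18 over EPR cKO (SD, n = 6 each), with overlapping ranges of 1.06 to 2.02 and 0.913 to 1.36. The difference between the nuclear and mtDNA-encoded genes was not tested.

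mt-Co1, the catalytic subunit of complex IV, was the most abundant of all 119 genes per length and lay at 11120, 12540 and 15560 CPM in the EPR fl/fl libraries and at 10160, 11670 and 17650 CPM in EPR cKO (-0.032, SE 0.16, adjusted p 0.926). It alone took 69.1% to 79.6% of the counts of the 13 genes. mt-Cytb, the cytochrome b of complex III, lay at 1216, 1525 and 2097 CPM and at 1227, 1468 and 1842 CPM (-0.039, SE 0.15, adjusted p 0.906). Among the complex I genes mt-Nd1 lay at 1105, 1375 and 1629 CPM and at 1126, 1170 and 1708 CPM (-0.040, SE 0.14, adjusted p 0.892).

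The less abundant core subunits of complex I gave mixed signs. mt-Nd2 was at 258 ± 76 and 245 ± 58 CPM (-0.074, SE 0.20, adjusted p 0.861). mt-Nd4 was at 344 ± 86 and 346 ± 74 CPM (0.0075, SE 0.18, adjusted p 0.985), a difference that took the other sign without TMM scaling (-0.018). mt-Nd5 was at 468 ± 99 and 549 ± 178 CPM (0.23, SE 0.20, adjusted p 0.553); without EPR cKO 1, its highest library, the log2 fold change was 0.049. mt-Nd6, the only gene of the 13 read from the other strand, varied most among the abundant ones, with 33.8, 68.3 and 220 CPM in EPR fl/fl, and 20.3, 55.3 and 89.0 CPM in EPR cKO (-0.64, SE 0.49, adjusted p 0.497). EPR fl/fl 1 held its highest value and stood far above the other 11 libraries; without it the log2 fold change was -0.12. The 2 mitochondrial ribosomal RNAs, which the library kit depletes in part, had log2 fold changes of -0.11 (mt-Rnr1, SE 0.30, adjusted p 0.859) and -0.049 (mt-Rnr2, SE 0.20, adjusted p 0.907).

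Levels per length differed by over 4 orders of magnitude along a genome that is transcribed as long precursors, and the low genes were not spread evenly. In EPR fl/fl mt-Co1 stood at 8490 CPM per kb, mt-Nd1 at 1416, mt-Cytb at 1348, and mt-Nd5, mt-Nd4, mt-Nd2 and mt-Nd6 between 166 and 256. By contrast mt-Co3 stood at 16.9 CPM per kb, mt-Co2 at 9.86, mt-Atp6 at 3.82, mt-Nd3 at 2.74, mt-Atp8 at 1.17 and mt-Nd4l at 0.499. These 6 genes lie next to each other, from chrM:7013 to chrM:10173.

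Of these 6 low genes, 5 have a near-identical copy in the nuclear genome. A stretch of chromosome 1 (chr1:24611535-24616197, minus strand, mm10) holds 7 annotated copies of mitochondrial genes in the mitochondrial order. Over 97% of the 50-base stretches of mt-Co2, mt-Atp6, mt-Co3, mt-Nd3 and mt-Nd4l also occur in 1 of these copies, from 98.0% for mt-Nd3 to 99.9% for mt-Co3. A read of that length from these genes has more than 1 place to align. Shared sequence was not limited to low genes. mt-Nd4 shared 62.2% with its copy, and mt-Co1, the most abundant gene, shared 51.1% with 3 other genes, of which 28.7% with the copy on chromosome 1. mt-Nd2 and mt-Nd5 shared 8.19% and 7.61%, whereas mt-Nd1, mt-Cytb and mt-Nd6 shared 0%. mt-Atp8 shared no stretch with an annotated transcript. Most of it lies in the 230 bases between mt-Co2 and mt-Atp6, the rest inside mt-Atp6, and the corresponding 233 bases between the chromosome 1 copies carry no annotated gene. The sources used here do not state what was done with reads that align to several places, so the levels of the genes that share sequence cannot be set against those of the other mtDNA-encoded genes.

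**Figure D4:**
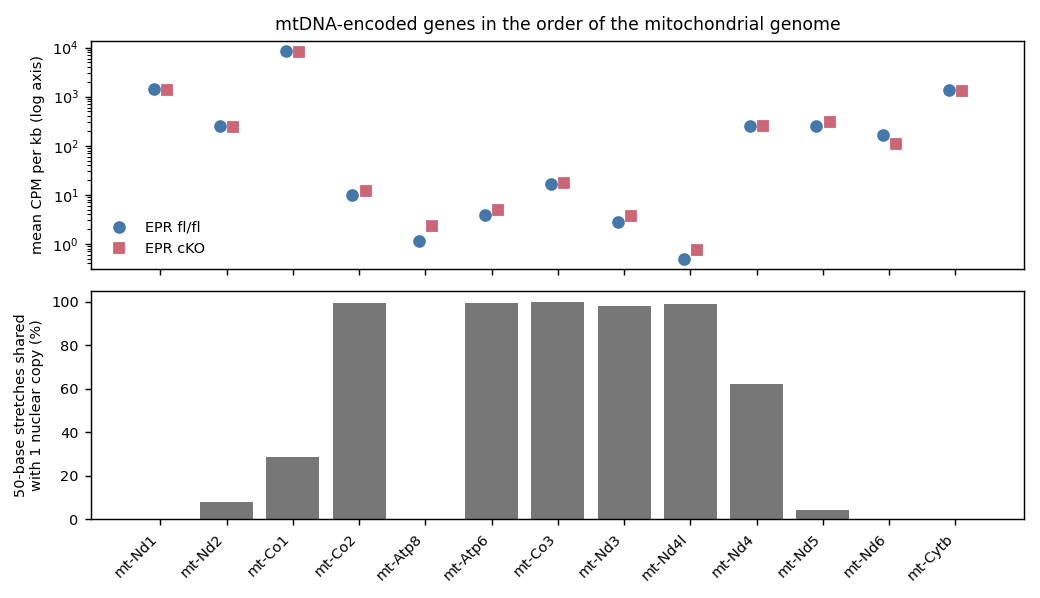
Upper panel, mean CPM per kb (log axis) of the 13 mtDNA-encoded genes in EPR fl/fl (circles) and EPR cKO (squares), in genome order. Lower panel, the percentage of each gene's 50-base stretches that occur in the nuclear copy sharing most of them; the 5 genes above 97% all stand under 17 CPM per kb in EPR fl/fl, as does mt-Atp8.

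Within this limit, the groups overlapped for the 3 low genes of complexes IV and V that were tested. mt-Co2 lay at 4.57, 6.73 and 8.85 CPM in EPR fl/fl and at 5.03, 7.73 and 13.6 CPM in EPR cKO (0.28, SE 0.24, adjusted p 0.538). mt-Co3 lay at 9.01, 11.7 and 20.7 CPM and at 8.29, 13.5 and 18.1 CPM (0.052, SE 0.23, adjusted p 0.919). mt-Atp6 lay at 1.86, 2.40 and 3.72 CPM and at 2.02, 3.11 and 6.32 CPM (0.35, SE 0.29, adjusted p 0.533). EPR cKO 1 was the highest library for mt-Co2 and mt-Atp6, and without it their log2 fold changes were 0.064 and 0.049. mt-Atp8, which overlaps mt-Atp6 by 43 bases, totalled 95 reads over 12 libraries, and mt-Nd4l, which overlaps mt-Nd4 by 7, totalled 49; neither was tested.

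mt-Nd3 and its chromosome 1 copy Gm28438 are nearly the same in sequence, and their counts took opposite values in the same libraries. Over the 345 bases compared they differ at 1, T3C, counted from the first base of mt-Nd3. The first 130 bases of the gene (chrM:9459-9588, plus strand) and of the copy (chr1:24612990-24613119, minus strand) are given below, 5′ to 3′, with the differing base in capitals, to show how little separates the 2 places a read can be assigned to.
mt-Nd3: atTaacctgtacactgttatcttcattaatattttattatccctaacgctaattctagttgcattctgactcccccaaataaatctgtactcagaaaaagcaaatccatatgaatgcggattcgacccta
Gm28438: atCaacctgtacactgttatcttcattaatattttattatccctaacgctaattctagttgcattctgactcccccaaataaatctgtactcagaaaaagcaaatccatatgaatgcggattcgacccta
In EPR fl/fl 1, EPR fl/fl 3, EPR cKO 1 and EPR cKO 3 the gene had 28, 60, 66 and 59 reads and the copy 4, 5, 18 and 24. In the other 8 libraries the gene had 1 to 15 reads and the copy 69 to 130. The share counted at the gene was thus 71.1% (95% exact binomial interval 60.1% to 80.5%) in EPR cKO 3 and 92.3% (83.0% to 97.5%) in EPR fl/fl 3, but 1.43% (0.0362% to 7.70%) in EPR cKO 6 and 13.5% (7.77% to 21.3%) in EPR fl/fl 6. Such intervals cover counting error only. The neighbouring transfer RNA genes followed the same division, with 1 to 21 reads for mt-Tg and 3 to 8 for mt-Tr in those 4 libraries and 0 reads for both in the other 8.

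The 4 libraries were replicates 1 and 3 of both groups. The labels do not say whether same-numbered libraries were handled together. The base that each animal carries at position 3 of mt-Nd3 was not examined, and the cause of the division was not tested. A fit with this division as a term was an alternative chosen after seeing the data. In it the median log2 fold change of the 88 nuclear genes was 0.24 and 0 were called. At an unadjusted p under 0.05, 47 were higher, against 11.6% of all tested genes. Each group held 2 libraries of one kind and 4 of the other, so that the mt-Nd3 values reached from 0.195 to 2.05 CPM in EPR fl/fl and from 0.0531 to 3.62 CPM in EPR cKO, and its log2 fold change was 0.42 with an SE of 0.84 (adjusted p 0.805); without EPR cKO 1 it was -0.25. The sum of gene and copy was 2.06 to 5.96 CPM in EPR fl/fl, and 3.72 to 6.02 CPM in EPR cKO.

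**Figure D5:**
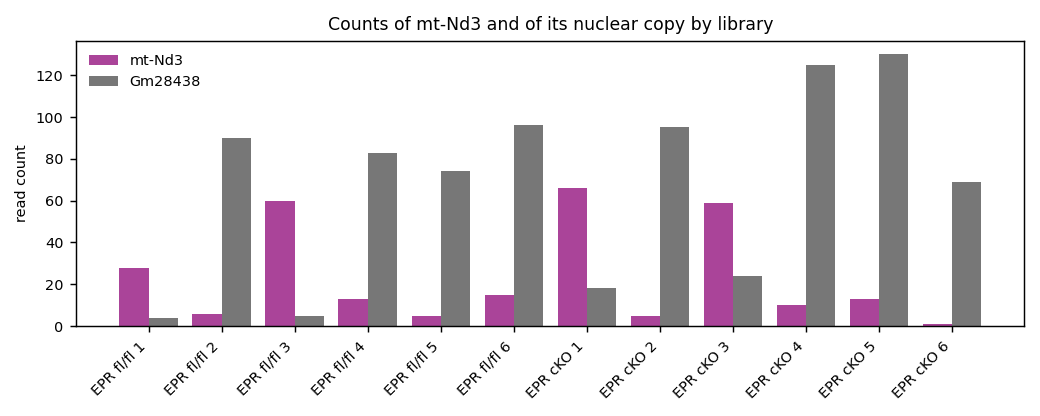
Read counts (vertical axis, from 0) of mt-Nd3 and of Gm28438 in each library. The gene exceeds the copy in EPR fl/fl 1, EPR fl/fl 3, EPR cKO 1 and EPR cKO 3 and is far below it in the other 8.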

How the data were processed

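Libraries of total RNA from the proximal colon were made with a stranded Illumina kit that depletes ribosomal RNA (Ribo-Zero Plus) and sequenced on a NovaSeq 6000. Per the study's methods and the submitters' processing notes, reads were trimmed with Trimmomatic, aligned to mm10 with STAR 2.5.3a and assigned to Ensembl gene models with featureCounts. The authors deposited raw counts per gene, neither normalized nor filtered, for 12 libraries; strand setting and treatment of multiply aligned reads are not given in the sources used here. All 12 count columns carry names that match sample titles (0 unmatched columns).

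The tested genes reached a CPM of 1 or more in 4 or more libraries, 15952 of 36694 with any count. Counts were scaled by TMM and tested with the quasi-likelihood F test of edgeR 4.0.16 in R 4.3.3, EPR cKO against EPR fl/fl without covariates. Adjustment of p-values followed Benjamini and Hochberg over all tested genes at a threshold of 0.05. The SE is the absolute log2 fold change divided by the square root of F. A prior count of 2 entered the log2 CPM of single libraries. CPM per kb divides by the summed exon length. Errors after ± are SDs over 6 animals. Counts of each library were checked against each other, and 0 pairs were near-identical (smallest chi-square per gene 24.7 over 30 pairs). The fits were also run on simulated counts, and the recovery of small fold changes there is not given here. Shared sequence was counted as exact 50-base stretches among GENCODE transcripts of GRCm38, the build of mm10.

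Genes named were the mt- protein genes, the 6 nuclear genes with the largest absolute log2 fold change, in each complex the subunit with the smallest p and the most abundant per length, the isoform pairs of complex IV, complex II, any called pathway gene, and 8 regulators and partners. Any further gene in the text was picked with its values in view. The genes, lists and tests were chosen with earlier results of these data known. Alternatives replaced the scaling (DESeq2 size factors, total counts, or library sizes without mt- and structural RNA genes), the filter, the test (DESeq2 1.42.0, limma-voom with limma 3.58.1), added the replicate number or the tissue score to the fit, or left out each library in turn. A fit with the mt-Nd3 division of the libraries as a term was added after seeing the data.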

Additional observations from a re-analysis of the deposited data

Results flagged for a closer look

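Among the genes named and the library measures, 96 sets of 6 libraries were examined for 1 library that stood apart from the other 5. Of these, 8 held one, where chance gives about 1 in 20, here 4.8, for independent sets of normally distributed values. The sets here come from the same libraries and are not independent, so that the 4.8 is only a rough guide.

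EPR fl/fl 3 was the low library for 4 nuclear subunit genes. Cox7c was at 86.5 CPM there against 125 to 143 CPM in the other EPR fl/fl libraries, Ndufb9 at 68.4 CPM against 92.3 to 103 CPM, Uqcrb at 103 CPM against 146 to 167 CPM, and Sdha at 335 CPM against 382 to 411 CPM. Without this library the median log2 fold change of the nuclear genes was 0.18. At an unadjusted p under 0.05, 15 of the 88 were higher, against 8.43% of all tested genes.

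EPR cKO 1 was the high library of its group for mt-Co2, at 13.6 CPM against 5.03 to 8.10 CPM, and for mt-Atp6, at 6.32 CPM against 2.02 to 3.23 CPM. It was the low library for Nrf1, at 21.9 CPM against 28.4 to 31.7 CPM. In EPR fl/fl 1, mt-Nd6 was at 220 CPM against 33.8 to 79.8 CPM in the other EPR fl/fl libraries. The cause was not tested for any of the 8.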

How the results depend on the processing

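The median log2 fold change of the 88 nuclear genes stayed above 0 in every alternative, between 0.062 (tissue score as a covariate) and 0.27. That of the mtDNA-encoded genes lay between -0.055 and 0.12. The 0.12 also came with the tissue score as a covariate, so in that fit the mtDNA-encoded median was above the nuclear one. It was the value of mt-Co3, a gene with a near-identical nuclear copy. mt-Co1, mt-Nd1 and mt-Cytb were at -0.225, -0.167 and -0.093 in that fit, and the other genes are given above. EPR stayed called in every alternative. The count of nuclear genes called higher, 0, became 3 with DESeq2 and lay between 0 and 19 when single libraries were left out, the 19 without EPR cKO 1. The count higher at an unadjusted p under 0.05 was 38 in the main fit, against 11.1% of all tested genes. The same share for each alternative stands in brackets. The count was 11 with total counts and no TMM (6.05%), 24 without the low-count filter (4.43%) and 5 with the tissue score (7.5%). Leaving out single libraries gave 13 (without EPR cKO 6, 7.28%) to 64 (without EPR cKO 1, 16.1%). Among those between were 14 without EPR cKO 5 (8.31%), 15 without EPR fl/fl 3 (8.43%), 19 without EPR cKO 3 (8.59%) and 20 without EPR fl/fl 5 (8.25%). Without EPR fl/fl 1 or 4 it was 22 (9.52% and 8.88%), and without EPR cKO 4 it was 23 (9.54%). The count lower, 1, was 2 without the filter, 0 with the replicate block, and 0 to 2 when single libraries were left out. The call of Polg was lost with total counts (adjusted p 0.151), without the filter (0.229), with the replicate block (0.109) and with the tissue score (0.121). The cause was not tested.

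The replicate numbers do not mark shared litters or days in the labels, and same-numbered libraries deviated together with correlations from -0.24 to 0.34, 2 of 6 correlating best with their own number; the mt-Nd3 division, however, fell on replicates 1 and 3 in both groups. With the replicate block 0 nuclear genes were called and 30 were higher at an unadjusted p under 0.05, against 9.67% of all tested genes.

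Among the genes named, log2 fold changes that took the other sign were all of genes without a call; over the 88 nuclear genes, 21 were below 0 with the tissue score and 2 without it. With the tissue score the named genes were mt-Nd2 (0.041), Cox7a2l (-0.097), Cox8a (-0.049), Ndufa4 (-0.10), Sdha (-0.036), Sdhb (-0.040), Nrf1 (-0.032), Gabpa (-0.038) and Tfam (-0.12). With limma-voom it was mt-Nd3 (-0.26), and mt-Nd4 was -0.018 with total counts and -0.020 without the filter. Leaving out single libraries gave ranges across 0 for mt-Nd1 (-0.13 to 0.020), mt-Nd2 (-0.19 to 0.029), mt-Co1 (-0.145 to 0.022), mt-Co3 (-0.055 to 0.21), mt-Nd3 (-0.251 to 0.80), mt-Nd4 (-0.12 to 0.091), mt-Cytb (-0.11 to 0.068), Cox7a2l (-0.016 to 0.065), Ndufa4 (-0.0032 to 0.15) and Gabpa (-0.0075 to 0.075). The fewest reads among the mtDNA-encoded genes were those of mt-Nd3, mt-Nd4l and mt-Atp8, with 281, 49 and 95 over 12 libraries.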
